A study of Mus musculus with 7 samples.

Results

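The genes that give spinal neurons their transmitter identity were followed in contused mouse spinal cord: Chat, Slc18a3, Slc5a7, Isl1 and Mnx1 for cholinergic and motor neurons, Gad1, Gad2, Slc6a5 and Slc32a1 for inhibitory neurons, and Slc17a6 for excitatory neurons. These 10 genes were chosen by symbol from the 21965 genes of the count table, and all 10 had enough reads to be tested. The question was whether they differed between Bmal1-/- and WT mice after spinal cord injury, class by class. Bmal1, whose gene is also named Arntl, encodes a transcription factor of the circadian clock.

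RNA came from a 5 mm piece of spinal cord around the epicenter, taken 3 days after a T9 contusion at 50 kdyn from mice that were 8 to 10 weeks old at injury. Bmal1-/- mice (2 females and 1 male) carried the germline allele Arntl tm1Bra on a C57BL/6 background (C57BL/6J in the study's methods), so the gene was altered in every cell type from conception. WT mice (2 females and 2 males) were C57BL/6 (likewise C57BL/6J in the methods), and all 7 mice received the same contusion. Uninjured mice were not analysed here. There was 1 library per mouse, without pooling. Among the WT mice was a littermate of the Bmal1-/- mice and the others were purchased, and which library came from the littermate is not given in the sources used here.

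Motor neurons make acetylcholine and send their axons out of the cord to muscle, so that they carry both an enzyme and transporters for acetylcholine and a set of transcription factors that define the motor lineage. Inhibitory interneurons of the cord use GABA, glycine or both, and load them into synaptic vesicles with a shared transporter. Most excitatory interneurons of the cord load glutamate with VGLUT2, the product of Slc17a6. In bulk RNA, fewer neurons of a type and less RNA per neuron cannot be told apart.

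Chat and Slc18a3 form a single cholinergic locus: Slc18a3 (chr14:32462438-32464850, minus strand, GRCm38) is 1 exon that lies inside the first intron of Chat (chr14:32408203-32465989, minus strand), and the 2 genes shared 0 annotated exon bases. The sequences before both starts, from RefSeq, are shown because the locus holds the only match to CACGTG, the E-box to which BMAL1 binds with its partner CLOCK, among the promoters of the 10 genes. The capitals mark that match, 98 bases before the start that RefSeq gives Chat, which lies inside the annotated first exon of GENCODE, and each sequence is written from 5′ to 3′ on the gene's strand and lies outside annotated exons. The first covers chr14:32465990-32466159 and the second chr14:32464851-32465041.
Chat: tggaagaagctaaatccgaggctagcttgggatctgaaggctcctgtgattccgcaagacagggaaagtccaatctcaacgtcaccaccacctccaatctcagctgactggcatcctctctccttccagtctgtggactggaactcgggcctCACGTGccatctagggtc
Slc18a3: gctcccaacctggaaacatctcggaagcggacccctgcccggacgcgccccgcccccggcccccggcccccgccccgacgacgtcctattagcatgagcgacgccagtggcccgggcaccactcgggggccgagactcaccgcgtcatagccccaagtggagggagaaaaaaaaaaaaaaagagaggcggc
CACGTG reads the same on both strands. It was present in 1 of 12 promoter windows of the 10 genes, each from 250 bases before to 50 bases after a start, and in 7.15% of all 32851 such windows. The match is a description of the letters and was not tied to binding in these data.

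Total counts ran from 38529644 to 44096737 per library, and levels are given as CPM, read counts scaled to a common library size after TMM normalization for composition. Features of the libraries bear on the neuron genes. First, the WT library numbered 3 (WT 3, male) held less neuronal RNA than the others: the summed level of 14 pan-neuronal genes was 4080 CPM in it, 6630 to 8700 CPM in the other WT libraries and 8810 to 10500 CPM in libraries labelled Bmal1-/-. The same library was the highest for summed microglia and macrophage genes, at 3630 CPM against 1920 to 2600 CPM in the other 6, most of it Lyz2 (2583 CPM), while the microglial gene P2ry12 was at 35.7 CPM in it and at 35.6 to 60.7 CPM elsewhere. Second, the libraries from the female WT mice, WT 1 and WT 2, held far more sensory neuron transcripts than the other 5. The targeted gene was checked in every library: Arntl was at 24.1, 24.2 and 22.5 CPM in libraries labelled Bmal1-/- and at 14.7, 15.3, 11.9 and 13.4 CPM in WT. Arntl thus went against its label at the gene level (log2 fold change 0.77, SE 0.10, adjusted p = 0.0155 by edgeR). A count summed over all exons does not check a deletion of part of a gene, and Arntl shares 33 exon bases with an antisense gene. Genes that BMAL1 is known to activate went with the labels: Nr1d1 fell by 2.51 and Dbp by 1.85 on the log2 scale (adjusted p = 0.000456 and 0.00328). Genotype is given below as labelled.

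Of the transmitter identity genes, 9 had higher mean levels in the libraries labelled Bmal1-/- than in WT and Isl1 had a lower one, but none of the 10 passed the test. Adjusted p-values throughout come from the quasi-likelihood test of edgeR, adjusted by Benjamini-Hochberg over all genes tested. An adjusted p under 0.05 was reached by 0 of the 10 genes, against 1.57% of all 15743 genes tested (0.654% higher and 0.915% lower). At an unadjusted p under 0.05, 4 of the 10 were higher (Slc18a3, Gad1, Gad2 and Slc32a1), where 8.64% of all genes tested were. In 7 of the 10, every library labelled Bmal1-/- lay above every WT library, as in 13.4% of all genes tested (26.9% had no overlap in either direction). The 7 were all 4 inhibitory genes, Slc17a6, Slc18a3 and Slc5a7. These genes followed the same libraries, so they do not count as 7 separate results: over the 7 libraries, the 36 pairs of genes without Isl1 had Pearson correlations of 0.90 to 1.00 with a median of 0.96, whereas the 9 pairs with Isl1 had 0.02 to 0.31. The median log2 fold change was 0.70 for the 5 cholinergic and motor neuron genes, 0.87 for the 4 inhibitory genes and 0.63 for Slc17a6, with -0.0057 over all genes tested.

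**Figure D1:**
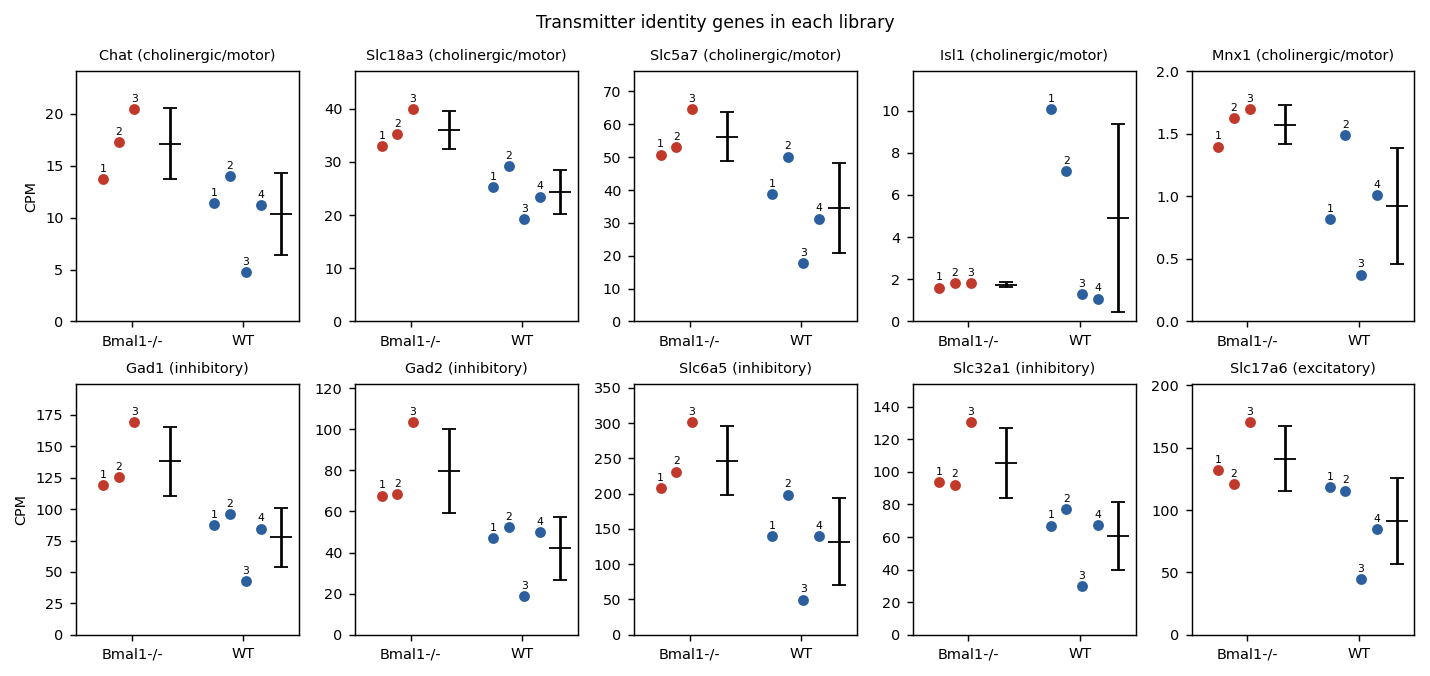
Level of each transmitter identity gene (CPM, linear axis from 0) in every library, numbered by replicate, red for Bmal1-/- and blue for WT, with the mean and SD of each group at its right. WT 3 is the lowest library for 9 of the 10 genes, and Isl1 differs from the others in being highest in WT 1 and WT 2.

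Acetylcholine is made by choline acetyltransferase, the product of Chat. Chat was at 13.7, 17.2 and 20.5 CPM in libraries labelled Bmal1-/- and at 11.4, 13.98, 4.74 and 11.2 CPM in WT. The groups overlapped because Bmal1-/- 1 was just under WT 2, and WT 3 was far under the rest. The means were 17.1 ± 3.39 (SD, n = 3) and 10.3 ± 3.94 CPM (SD, n = 4), and the log2 fold change was 0.73 (SE 0.33, 95% interval -0.0489 to 1.51, adjusted p = 0.257).

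Acetylcholine is packed into vesicles by VAChT, the product of Slc18a3. Its level was 33.0, 35.2 and 40.0 CPM in libraries labelled Bmal1-/- and 25.2, 29.2, 19.3 and 23.4 CPM in WT, without overlap. With a log2 fold change of 0.57 (SE 0.14, 95% interval 0.24 to 0.90), Slc18a3 had the lowest adjusted p of the 10 genes, 0.102, and DESeq2's Wald test gave an adjusted p of 0.00618. In WT 3 it stood near the other WT libraries, unlike Chat. The ratio of Slc18a3 to Chat was accordingly 4.06 in WT 3 and between 1.95 and 2.41 in the other 6 libraries.

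Choline for this synthesis is taken back into the terminal by CHT1, the product of Slc5a7 (chr17:54273590-54299034). Slc5a7 was at 50.8, 53.0 and 64.7 CPM in libraries labelled Bmal1-/- and at 38.8, 50.2, 17.7 and 31.3 CPM in WT. The groups did not overlap, but Bmal1-/- 1 exceeded WT 2 by a margin far smaller than the spread among WT. The log2 fold change was 0.70 (SE 0.31, 95% interval -0.0164 to 1.42, adjusted p = 0.247).

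Mnx1 (chr5:29473034-29478470) encodes HB9, a homeodomain factor of motor neurons, and was the least abundant of the 10 genes in counts, with 15 to 70 reads per library. It was at 1.40, 1.62 and 1.70 CPM in libraries labelled Bmal1-/- and at 0.816, 1.49, 0.374 and 1.01 CPM in WT. Of the libraries labelled Bmal1-/-, 2 lay above all of WT, and the remaining one lay between WT 2 and WT 4. The log2 fold change of 0.77 had an SE of 0.39 and a 95% interval from -0.15 to 1.69 (adjusted p = 0.292).

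Isl1 (chr13:116298281-116309689) encodes a LIM-homeodomain factor needed by motor neurons and also kept in adult sensory neurons. It had 63, 78 and 71 reads in the libraries labelled Bmal1-/- (1.60, 1.81 and 1.80 CPM) and 395, 277, 52 and 43 reads in WT (10.1, 7.12, 1.30 and 1.08 CPM). WT 1 and WT 2 were therefore high, and the other 2 WT libraries lay under every library labelled Bmal1-/-. The mean of 1.74 ± 0.12 CPM (SD, n = 3) against 4.89 ± 4.44 CPM (SD, n = 4) gave a log2 fold change of -1.49 (SE 0.80, 95% interval -3.36 to 0.38, adjusted p = 0.308). Without WT 1 and WT 2 the log2 fold change was 0.54 (adjusted p = 0.17), the direction of Chat, Slc18a3, Slc5a7 and Mnx1, and in females alone it was -2.33 (adjusted p = 0.0101). Both sets of libraries were chosen after the data were seen.

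The libraries with high Isl1 were those with sensory neuron transcripts. Scn10a, a sodium channel of nociceptors, had 0, 0 and 1 reads in the libraries labelled Bmal1-/- and 5925, 2770, 127 and 37 reads in WT. Mrgprd, a receptor of non-peptidergic nociceptors, had 0, 1 and 0 reads against 769, 275, 13 and 4. The summed level of the 9 sensory neuron genes, Isl1 among them, was 471 CPM in WT 1 and 236 CPM in WT 2, then 20.1 and 16 CPM in the other WT libraries and 12 to 17.7 CPM in libraries labelled Bmal1-/-. None of the 9 passed the test (lowest adjusted p = 0.106), while all 9 had a negative log2 fold change, with a median of -5.18.

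Isl1 and 7 of the other 8 sensory genes were at least 2 times as high in both WT 1 and WT 2 as in each of the other 5 libraries, a pattern found in 0.58% of all genes tested. Isl1 was the single transmitter identity gene to show it. Among 14 further motor neuron and cholinergic genes, Prph, Isl2 and Calcb showed it, and these are also known from sensory neurons. WT 1 and WT 2 were the female WT mice, so among WT the sex of the mouse and the presence of sensory transcripts cannot be told apart. Both libraries from females labelled Bmal1-/- were at 1.60 and 1.81 CPM for Isl1, as low as the male at 1.80 CPM. The part of sensory neuron RNA in the level of Isl1 was not tested.

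**Figure D2:**
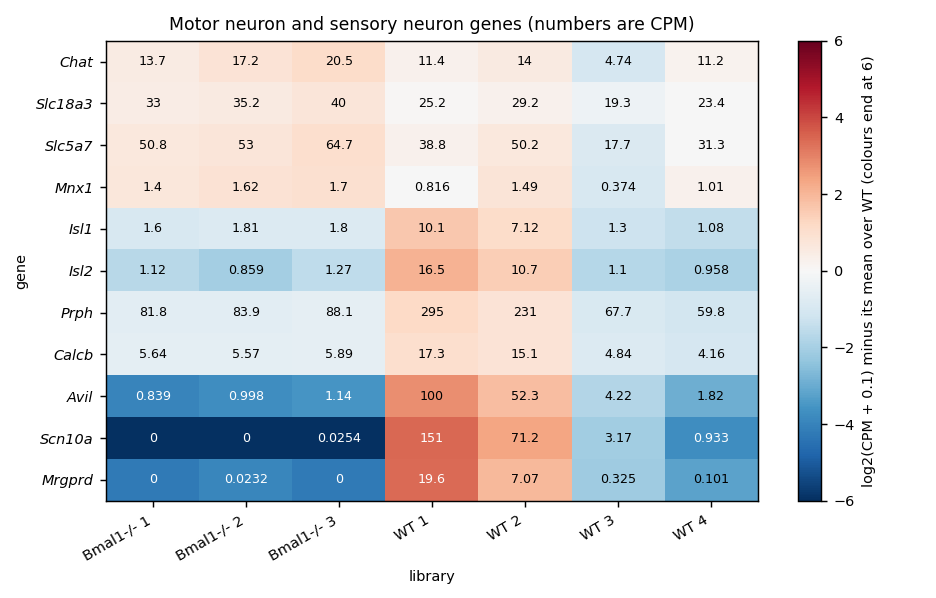
Levels of cholinergic, motor neuron and sensory neuron genes in each library, with the number in each cell giving CPM and its colour the log2 of CPM plus 0.1 relative to the mean over WT. Isl1, Isl2, Prph and Calcb share the high WT 1 and WT 2 columns of Avil, Scn10a and Mrgprd, whereas Chat, Slc18a3, Slc5a7 and Mnx1 do not.

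Over the 7 libraries, the 5 genes whose log2 CPM followed Isl1 most closely were Prph (Pearson r = 0.999), Ppp1r2 (0.999), Calcb (0.998), Alkal2 (0.994) and Cdk15 (0.991). For the mean profile of all 5 cholinergic and motor neuron genes they were Pcmt1, Slitrk4, Cd99l2, Dynlt3 and Fitm2, with r from 0.994 to 0.997. That profile averages Isl1 with Chat, Slc18a3, Slc5a7 and Mnx1, with which Isl1 had correlations of 0.02 to 0.25, so it mixes unlike patterns. These correlations describe 7 libraries that share the same differences in neuronal RNA. Those with class profiles were taken over 14348 genes with a mean of at least 1 CPM, without the transmitter identity genes. Those with Isl1 used the same cutoff and left out only Isl1 itself.

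GABA is made from glutamate by the 2 glutamate decarboxylases, GAD67 from Gad1 (chr2:70553072-70602014) and GAD65 from Gad2 (chr2:22622205-22693874). Gad1 was at 119, 125 and 169 CPM in libraries labelled Bmal1-/- and at 87.0, 95.9, 42.8 and 84.5 CPM in WT. The groups did not overlap, with Bmal1-/- 3 the highest and WT 3 the lowest. The log2 fold change was 0.83 (SE 0.27, 95% interval 0.20 to 1.46, adjusted p = 0.168, or 0.0352 with DESeq2's Wald test). Without WT 3 it was 0.63 with an adjusted p of 0.0494, and no other of the 10 genes passed when any 1 library was left out.

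Gad2 was at 67.7, 68.4 and 103 CPM in libraries labelled Bmal1-/- and at 47.0, 52.2, 18.9 and 49.8 CPM in WT. The pattern was that of Gad1, with the same libraries at either end. It had the largest positive log2 fold change of the 10 genes, 0.93 (SE 0.34, 95% interval 0.13 to 1.72, adjusted p = 0.197). The ratio of Gad2 to Gad1 varied little, from 0.547 to 0.611 in the libraries labelled Bmal1-/- and from 0.442 (WT 3) to 0.589 in WT.

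Glycine is taken up by GlyT2, the product of Slc6a5 (chr7:49910146-49963856), which marks glycinergic neurons of the cord. Slc6a5 had the highest CPM of the 10 genes, at 208, 231 and 301 in the libraries labelled Bmal1-/- and 140, 199, 49.9 and 139 in WT. Bmal1-/- 1 lay just above WT 2, while WT 3 was far under the other WT libraries. The log2 fold change was 0.90 (SE 0.40, 95% interval -0.0324 to 1.84, adjusted p = 0.250). It was 0.63 without WT 3, and 1.17 at the highest when another library was left out.

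VIAAT, the product of Slc32a1 (chr2:158610767-158615748), loads both GABA and glycine into vesicles. Slc32a1 was at 93.5, 92.2 and 130 CPM in libraries labelled Bmal1-/- and at 67.0, 77.2, 29.9 and 67.5 CPM in WT, again without overlap. Its log2 fold change was 0.80 (SE 0.30, 95% interval 0.0911 to 1.52, adjusted p = 0.206). Slc32a1 overlaps an antisense gene, Gm14205, by 697 exon bases, so its count rests on the strand setting of the counting, which is not given in the sources used here. The profile of the 4 inhibitory genes was followed most closely by Kcnk9, Cacng7, Slc24a2, Vwc2 and Phyhip, all at r = 0.999 over the 7 libraries.

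Slc17a6 (chr7:51622006-51671119), the vesicular glutamate transporter of excitatory interneurons, was at 132, 121 and 170 CPM in libraries labelled Bmal1-/- and at 119, 116, 44.5 and 84.9 CPM in WT. Every library labelled Bmal1-/- was above every WT library, though Bmal1-/- 2 exceeded WT 1 and WT 2 only narrowly. Among WT, Slc17a6 was highest in WT 1 and WT 2, the libraries with sensory neuron transcripts, and the part of sensory neuron RNA in its level was not tested. The log2 fold change of 0.63 (SE 0.32, 95% interval -0.11 to 1.38, adjusted p = 0.288) was 0.41 without WT 3. Snx19, Atp6v0e2, Slc45a1, Mark1 and Slc2a3 had the profiles most like it (r from 0.998 to 0.999). Slc17a6 and Slc6a5 lie on the chromosome of Arntl, 61.5 and 63.2 Mb from it.

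**Figure D3:**
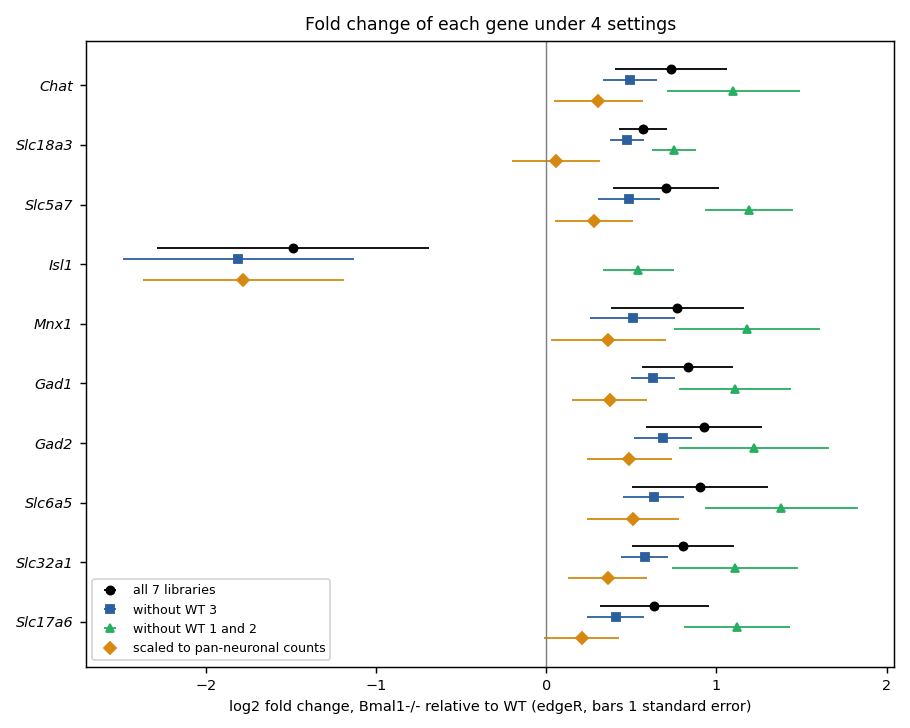
Log2 fold change of each gene, Bmal1-/- relative to WT, from edgeR with all 7 libraries, without WT 3, without WT 1 and WT 2, and with libraries scaled to pan-neuronal counts; bars are 1 SE. All genes but Isl1 stay to the right of 0 under all 4 settings and move toward 0 without WT 3, and Isl1 is to the right of 0 in 1 of the 4, the one without WT 1 and WT 2.

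WT 3 set part of the size of these differences. Without it, the median log2 fold change was 0.49 instead of 0.70 for the cholinergic and motor neuron genes and 0.63 instead of 0.87 for the inhibitory genes. The 9 positive fold changes kept their sign whichever single library was left out. For the genes whose groups did not overlap, this followed from the lack of overlap and is not a separate result. When libraries were scaled to the counts of the 14 pan-neuronal genes instead of all genes, the medians were 0.28 and 0.43, Slc17a6 was at 0.21, and Slc18a3 was at 0.06. On that scale the median of all genes tested shifted to -0.57, and 9 of the 10 genes were still above 0. The pan-neuronal genes themselves had a median log2 fold change of 0.41 on the TMM scale, and 14 of 14 were positive, with 0 called. The 2 most abundant of them, the neurofilament genes Nefl and Nefm, were at 0.39 and 0.55, and their exons overlap by 1108 bases on opposite strands. Uchl1 (673 and 683 CPM) and Elavl4 (56.2 and 51.3 CPM) had their highest levels in WT 1 and WT 2, the libraries with sensory neuron transcripts. Of the 14, 0 were at least 2 times as high in both as in each other library. The part of sensory neuron RNA in the pan-neuronal scale was not tested.

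The balance between classes was compared within each library, where library size cancels. The summed level of the 4 inhibitory genes divided by that of Slc17a6 was 3.70, 4.28 and 4.13 in the libraries labelled Bmal1-/- and 2.87, 3.67, 3.18 and 4.02 in WT. The groups overlapped, with means of 4.04 ± 0.30 (SD, n = 3) and 3.44 ± 0.51 (SD, n = 4). The lowest ratio, 2.87, was in WT 1, the library with the most sensory neuron transcripts, while WT 2, with the next most, was at 3.67. The part of sensory neuron RNA in Slc17a6, and so in the ratios that use it, was not tested. Chat divided by Gad1 was 0.125 ± 0.012 and 0.130 ± 0.014, and Chat divided by Slc17a6 was 0.122 ± 0.020 and 0.114 ± 0.016. The differences in these ratios were not tested, and in each of the 3 the groups' ranges overlapped.

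**Figure D4:**
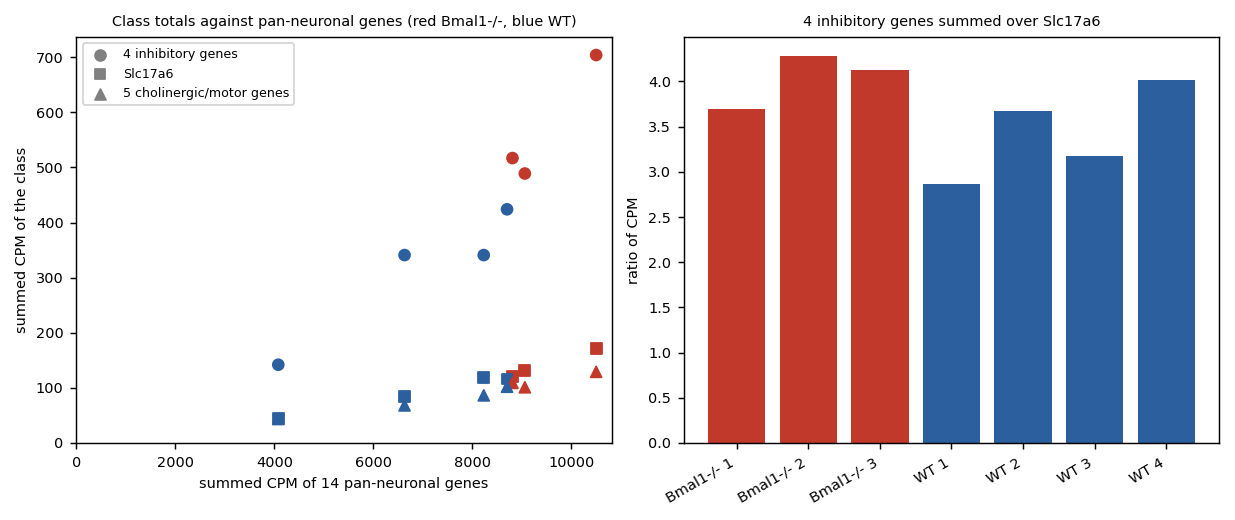
Left, summed CPM of the 4 inhibitory genes, the 5 cholinergic and motor neuron genes and Slc17a6 in each library against the summed CPM of 14 pan-neuronal genes, red for Bmal1-/- and blue for WT; right, the ratio of the 4 inhibitory genes to Slc17a6 in each library. WT 3, at 4080 CPM of pan-neuronal genes, is lowest for every class, and the ratio of WT 4, 4.02, lies among those of the libraries labelled Bmal1-/-.

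To compare levels between genes, CPM was divided by the length of the merged exons in kilobases. In WT the order was Slc32a1 (21.6 ± 7.45 CPM per kb, SD, n = 4), Slc6a5 (18.3), Slc17a6 (16.8), Gad1 (10.2), Slc18a3 (10.1), Gad2 (7.14), Slc5a7 (6.11), Chat (2.20), Isl1 (1.24) and Mnx1 (0.410). The ranges of neighbours in this order overlapped over the 4 WT libraries, apart from Slc5a7 (3.14 to 8.89 CPM per kb) and Chat (1.01 to 2.97 CPM per kb). The libraries labelled Bmal1-/- had the same order down to Chat, from 37.7 ± 7.78 CPM per kb (SD, n = 3) for Slc32a1 to 3.64 for Chat. Below it Mnx1 (0.700) and Isl1 (0.439) stood in the reverse order. Isl1 was at 2.55 and 1.80 CPM per kb in WT 1 and WT 2, the libraries with sensory neuron transcripts. It was at 0.328 in WT 3, above Mnx1 (0.166), and at 0.274 in WT 4, below Mnx1 (0.448).

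Wider lists of genes of the same classes were examined next. Of 14 further motor neuron and cholinergic genes, 0 passed the test (1.57% of all genes tested did), 7 had an unadjusted p under 0.05 (20.9% of all genes tested had one), and 8 had a positive log2 fold change, with a median of 0.31 (4 of 14 and -0.13 when scaled to pan-neuronal counts). Of the 7, Ache, Slc10a4, Chodl and Lhx3 were higher, and Isl2 (log2 fold change -2.76), Aldh1a2 (-1.71) and Foxp1 (-0.30) were lower. Aldh1a2 was at 5.59, 23.6 and 5.25 CPM in libraries labelled Bmal1-/- and 40.9, 48.1, 28.0 and 33.3 CPM in WT. Among libraries labelled Bmal1-/-, the summed fibroblast genes were also highest in Bmal1-/- 2 (486, 2330 and 407 CPM, against 1220 to 1930 CPM in WT). The part of fibroblast RNA in the level of Aldh1a2 was not tested. Slc10a4, a vesicular protein of cholinergic neurons, was at 15.9, 15.9 and 17.8 CPM against 10.97, 13.5, 8.79 and 9.53 CPM (log2 fold change 0.63, SE 0.15, adjusted p = 0.096). Lhx3, a LIM-homeodomain factor that acts with ISL1 in motor neurons, was at 0.966, 1.04 and 1.12 CPM against 0.689, 0.823, 0.474 and 0.504 CPM. The most abundant of the list were Ret, the GDNF receptor, and Prph, an intermediate filament of peripherally projecting neurons. Ret was at 225 to 259 CPM in libraries labelled Bmal1-/- and 117 to 320 CPM in WT, and Prph at 81.8 to 88.1 and 59.8 to 295 CPM, with log2 fold changes of 0.22 (-0.20 when scaled to pan-neuronal counts) and -0.95.

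Of 19 further inhibitory neuron genes, 1 was called higher, where 0.654% of all genes tested were, and all 19 had positive log2 fold changes, with a median of 0.44, whereas 8 of 19 were positive and the median was -0.0241 when scaled to pan-neuronal counts. The called gene was Npy, a peptide of a group of dorsal horn inhibitory neurons, at 25.4, 20.6 and 22.6 CPM in libraries labelled Bmal1-/- and 17.0, 15.6, 15.7 and 14.4 CPM in WT. Npy rose by a log2 fold change of 0.54 (SE 0.10, adjusted p = 0.0448), and scaling to pan-neuronal counts took this to -0.0205. Npy also passed with DESeq2's Wald test (adjusted p = 5.08e-05). With edgeR it passed with RLE scaling (adjusted p = 0.0449) and with other filters (adjusted p = 0.0475 and 0.0454). It did not pass with limma-voom (adjusted p = 0.0515), with upper-quartile scaling (adjusted p = 0.0587), with sex as a covariate (adjusted p = 0.0831) or with the replicate number as a block (adjusted p = 0.354). It also failed to pass in 6 of the 7 fits that left out 1 library (adjusted p of 0.0551 to 0.191), and passed without WT 3 (adjusted p = 0.0321). Pdyn, the precursor of dynorphin, had a log2 fold change of 0.93 (SE 0.30, adjusted p = 0.162). Abat, which breaks down GABA and is also used by astrocytes, had a log2 fold change of 0.44 (adjusted p = 0.309), or -0.0241 when scaled to pan-neuronal counts. Summed astrocyte genes were also higher in the libraries labelled Bmal1-/-, at 15800 to 18100 CPM against 10200 to 14800 CPM, a sum made up mostly of Gfap. None of the 8 astrocyte genes was called, and 3 of them had negative log2 fold changes, among them Aldh1l1 (-0.47) and Slc1a3 (-0.44).

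Of 18 further excitatory neuron genes, 17 were tested, 0 were called, 12 had positive log2 fold changes and the median was 0.21 (4 of 17 and -0.28 when scaled to pan-neuronal counts). Cck, a peptide of dorsal horn excitatory neurons, was at 16.9, 13.4 and 16.4 CPM against 9.97, 10.9, 8.89 and 11.2 CPM (log2 fold change 0.60, SE 0.12, adjusted p = 0.0642). The 2 most abundant, Reln and Maf, had log2 fold changes of 0.21 (-0.28 when scaled to pan-neuronal counts) and -0.22, and both share exon bases with antisense genes. Slc17a7 and Slc17a8, the other 2 vesicular glutamate transporters, were at 4.13 to 5.99 CPM and 1.07 to 1.12 CPM in libraries labelled Bmal1-/-. Both were highest in WT 1 and WT 2, at 10.9 and 8.23 CPM for Slc17a7 and 3.54 and 2.49 CPM for Slc17a8, the libraries with sensory neuron transcripts.

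Levels of some other cell types differed between the labels. Summed skeletal muscle genes were at 5.39 to 6.90 CPM in libraries labelled Bmal1-/- and 49 to 66.1 CPM in WT, with 6 of 7 called lower, where 0.915% of all genes tested were. Of 5 Schwann cell genes, 1 was called lower and all 5 had negative log2 fold changes, with a median of -1.09, and 1 of the 5, Mbp, is also made by oligodendrocytes. Summed endothelial genes were at 337 to 387 CPM against 400 to 654 CPM, with 1 of 6 called lower and all 6 log2 fold changes negative. The part of these transcripts, and of the microglia and macrophage RNA in WT 3, in the levels of the transmitter identity genes was not tested.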

How the data were processed

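Gene expression was measured in 7 libraries from contused spinal cord, 3 labelled Bmal1-/- and 4 WT. Poly-A libraries made with a stranded kit were sequenced by the authors, who aligned reads to GRCm38 with Tophat 2.0.13 and counted them per gene with HTSeq 0.10.0. The strand setting and the annotation used for counting are not given in the sources used here. The deposited values are raw counts of 21965 genes, without normalization, of which 21939 matched a symbol in GENCODE release 21 for mouse. The transmitter identity genes and all gene lists were chosen with earlier results of these data known.

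Genes were kept with edgeR's filterByExpr (15743 genes), scaled by TMM and tested for genotype with edgeR's quasi-likelihood test and Benjamini-Hochberg adjustment at 0.05 (edgeR 4.0.16, limma 3.58.1, R 4.3.3). The spread between mice, with a common dispersion of 0.0342, and not counting error limits precision for all but the least abundant genes. Levels are CPM, and fold changes are log2. Intervals are 95% intervals from the standard error and the degrees of freedom of the test. The functions were tested on simulated counts. Sexes are those of the labels. Libraries of one group differed by more than sampling noise, with a chi-square per gene of 14.1 to 155. The alternatives were DESeq2 1.42.0, limma-voom, other scalings and filters, sex as a covariate, a replicate block, and leaving out libraries. After the data were seen, fits without WT 1 and WT 2, fits on females alone and a sex by genotype test were added.

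Besides the 10 genes, the rule named Arntl, the called genes and the 2 most abundant genes of each neuron list, and the 5 genes with the profiles most like each class. Slc10a4, Lhx3, Isl2, Calcb, Pdyn, Cck, Slc17a7, Slc17a8, Avil, Scn10a, Mrgprd, Nr1d1, Dbp, the single genes given for other cell types and the genes most like Isl1 were chosen after their values were seen. So were Ache, Chodl, Aldh1a2, Foxp1, Uchl1 and Elavl4. Some genes are not reported here. Promoter sequences were from RefSeq (GRCm38.p6), gene positions and merged exon lengths from GENCODE release 21, and all 10 genes matched both. Plots were drawn with matplotlib 3.10.9 under python 3.11.15.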

Additional observations from a re-analysis of the deposited data

Results flagged for a closer look

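Among the 4 WT libraries, the level of Gad2 in WT 3, 18.9 CPM, was separated from the other 3 by a gap whose share of the whole range passed Dixon's 95% critical value for 4 samples. The same held for the summed level of the wider inhibitory genes in WT 3, 498 CPM, and for the summed skeletal muscle genes in WT 4, 66.1 CPM. These were the 3 of 22 genes and sums examined that passed it, and chance gives about 1 in 20.

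For Isl1, the genotype difference in males minus that in females was estimated at 2.93 on the log2 scale (SE 0.39), in a test chosen after the data were seen. It did not pass after adjustment (adjusted p = 0.35, edgeR's quasi-likelihood test), and 0 genes in all passed it (1934 had an unadjusted p under 0.05). With 1 male labelled Bmal1-/-, and with the sensory neuron transcripts in both female WT libraries, sex and those transcripts cannot be told apart here.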

How the results depend on the processing

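None of the 10 genes was called with limma-voom, RLE or upper-quartile scaling, pan-neuronal scaling, other filters, sex as a covariate or the replicate block, while DESeq2 called 2 (Slc18a3 and Gad1) and 1513 genes in all. Leaving out 1 library gave 0 to 1 of the 10 (Gad1, without WT 3) and 57 to 730 genes in all, against 247 with all libraries. The numbers of genes called fell to 78 with pan-neuronal scaling. In fits chosen after the data were seen, females alone gave 3 of the 10 (Isl1 at -2.33, Gad1 at 0.42 and Gad2 at 0.46) and 757 genes in all, and 41 genes were called without WT 1 and WT 2, with 10 of the 10 genes higher but 0 called. Leaving out 1 library moved the medians over 0.486 to 0.908 for the cholinergic and 0.63 to 0.996 for the inhibitory genes, and the single genes over -1.82 to -0.863 for Isl1 and 0.407 to 1.17 for the other 9. Signs turned with pan-neuronal scaling for Ret (-0.195), Npy (-0.0205), Abat (-0.0241), Reln (-0.277) and Nefl (-0.0475). They also turned without WT 1 and WT 2 for Isl1 (0.541) and Prph (0.406), and in females alone for Ret (-0.29) and Nefl (-0.019). The cause was not tested. Replicate numbers are shared by the groups, but same-numbered libraries did not deviate together (correlations -0.17, 0.18 and -0.29), and with the replicate number as a block 0 genes were called, of the 10 or in all, with a lowest adjusted p among the 10 of 0.476. Mnx1, with 15 to 70 reads per library, is the gene most limited by depth.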
